A study of Mus musculus with 6 samples.

Results

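Lysosomal enzymes and membrane proteins were followed as a set of 31 genes chosen by what their products do: proteases, glycosidases, lipid enzymes, membrane proteins and the transcription factor TFEB. The set was found by gene symbol among the 20199 genes of the count table, which held all 31 of them. Of these, 30 were abundant enough to be tested among 15185 genes. The exception was Ctss, cathepsin S.

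The samples were bulk RNA sequencing libraries of smooth muscle cells from the aorta of C57B6 mice 12 weeks old, 3 wild type and 3 knockout for the microRNA miR-21. The wild-type genotype is written WT/mTmG/ Myh11ERT2 and the knockout genotype miR-21fl/flmTmG/Myh11ERT2. The controls therefore also carried mTmG, a fluorescent reporter of Cre recombination, and Myh11ERT2, named for a tamoxifen-responsive driver under the smooth muscle myosin gene Myh11. Such a driver acts in smooth muscle and needs an inducer, so other cells in a preparation would keep miR-21. The labels do not say whether tamoxifen was given, whether the cells were cultured, or how many animals stood behind a library. The p-values therefore measure the spread between these libraries, part of which may be technical. Loss of miR-21 itself was not checked here. The libraries are called wild type 1 to 3 and knockout 1 to 3.

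Lysosomes are the acidic compartments in which cells break down proteins, glycans and lipids that arrive by endocytosis and autophagy. Their soluble hydrolases are made in the endoplasmic reticulum, tagged with mannose 6-phosphate and carried to the lysosome by receptors, while heavily glycosylated membrane proteins line the compartment. Many of these genes are switched on together by the transcription factor TFEB, which binds an E-box within the so-called CLEAR element near their start sites. In smooth muscle cells of the artery wall, lysosomes are known for clearing cholesterol esters taken up from lipoproteins and for cathepsins that can be secreted and cut elastin and collagen.

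MicroRNAs act by pairing their seed with messages. The mature sequence of miR-21a-5p, the microRNA that was targeted, is shown because the seed sites below were sought through it. It is taken from RefSeq on GRCm38.p6 at chr11:86584120-86584141, minus strand, with the seed, bases 2 to 8, in capitals.
mmu-miR-21a-5p: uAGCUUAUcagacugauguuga
The seed pairs with ATAAGCT in a message. In the longest 3′ UTR of each gene in GENCODE vM1, this site was present in 1 of the 31 lysosomal genes (3.23%), against 842 of the 11144 tested genes with such a UTR (7.56%). The gene was Ctsl, cathepsin L, where the site began at base 712 of a UTR of 884 bases. It is shown with its surroundings, the site in capitals.
Ctsl site: tgatagggctaATAAGCTtacctcaaatat
The sequence-level count is a match of letters and carries no measurement of binding. Shorter seed matches and sites outside the 3′ UTR were not sought. Ctsl, with the only such site among the lysosomal genes, was at 286, 265 and 250.4 CPM (counts scaled by library size and edgeR's TMM factors) in wild type 1, 2 and 3 and 234, 267 and 242 CPM in knockout 1, 2 and 3. Knockout 2 lay inside the wild-type range and the other knockout libraries below it, so the groups overlapped. Its fitted log2 fold change, knockout against wild type, was −0.11 ± 0.12 (SE; adjusted p = 0.823, edgeR's quasi-likelihood test with Benjamini-Hochberg adjustment), and −0.059 without wild type 1, its highest library.

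The E-box that TFEB binds was sought around the start sites. RefSeq promoters on GRCm38.p6, from 250 bases before to 50 bases after the start site, were at hand for 27 of the 31 genes. Ctsb, Ctsh, Asah1 and Npc1 were the others. The palindrome CACGTG, which reads the same on both strands, occurred in 10 of the 27 promoters (37%), against 11.8% of 10108 tested genes with a promoter and 8.09% of all 27025 genes in the table. The longer core TCACGTGA, which contains the E-box, occurred in 4 of the 27 (14.8%), those of Ctsa, Ctsd, Gla and Mcoln1, against 2.21% of the tested genes. The full CLEAR element, sought only as an exact match of 10 bases, occurred in 0 of the 27, against 0.782% of the tested genes. Near matches were not counted, and with a share this low 0 of 27 does not show that these genes lack the element. The other E-box promoters were those of Ctsf, Ctsl, Gaa, Glb1, Lamp1 and Lgmn. These matches describe the letters and were not tested as binding sites. The promoters below are shown because 4 hold the longer core and that of Lamp1 holds 4 separate E-boxes. Capitals mark the E-box, or the core where it is complete.
Ctsd promoter, chr7:142387778-142388077, minus strand: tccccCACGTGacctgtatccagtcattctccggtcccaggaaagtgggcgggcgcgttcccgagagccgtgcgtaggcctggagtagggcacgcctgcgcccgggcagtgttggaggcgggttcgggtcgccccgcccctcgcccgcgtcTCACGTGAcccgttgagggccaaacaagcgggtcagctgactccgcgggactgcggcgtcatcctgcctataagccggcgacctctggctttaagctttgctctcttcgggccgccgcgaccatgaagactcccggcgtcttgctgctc
Ctsa promoter, chr2:164833523-164833822, plus strand: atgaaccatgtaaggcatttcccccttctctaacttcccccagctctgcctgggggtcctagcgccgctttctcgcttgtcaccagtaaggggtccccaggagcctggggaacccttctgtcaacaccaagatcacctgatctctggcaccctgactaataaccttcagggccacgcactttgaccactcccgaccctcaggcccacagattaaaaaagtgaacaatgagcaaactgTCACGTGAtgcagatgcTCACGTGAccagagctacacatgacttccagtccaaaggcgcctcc
Gla promoter, chrX:134600956-134601255, minus strand: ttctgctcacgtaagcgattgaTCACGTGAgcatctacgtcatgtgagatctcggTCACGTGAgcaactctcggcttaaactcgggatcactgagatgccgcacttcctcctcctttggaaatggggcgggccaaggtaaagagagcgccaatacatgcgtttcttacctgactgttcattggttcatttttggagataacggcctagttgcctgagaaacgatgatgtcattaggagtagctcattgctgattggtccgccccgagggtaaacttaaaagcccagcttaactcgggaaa
Mcoln1 promoter, chr8:3500269-3500568, plus strand: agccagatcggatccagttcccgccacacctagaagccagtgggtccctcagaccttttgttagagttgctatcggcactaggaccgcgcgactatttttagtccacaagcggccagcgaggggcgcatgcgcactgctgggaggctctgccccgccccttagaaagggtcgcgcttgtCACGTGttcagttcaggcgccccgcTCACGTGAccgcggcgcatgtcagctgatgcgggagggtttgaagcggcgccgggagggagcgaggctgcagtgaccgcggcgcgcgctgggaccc
Lamp1 promoter, chr8:13158911-13159210, plus strand: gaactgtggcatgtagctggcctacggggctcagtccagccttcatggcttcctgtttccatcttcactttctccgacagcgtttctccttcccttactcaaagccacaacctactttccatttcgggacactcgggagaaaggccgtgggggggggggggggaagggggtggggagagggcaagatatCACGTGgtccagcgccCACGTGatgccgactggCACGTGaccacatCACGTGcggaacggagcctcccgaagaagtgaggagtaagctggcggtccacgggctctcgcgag
In Lamp1 the 4 E-boxes began at −61, −45, −28 and −15 from the start site. In Ctsa the E-boxes within the cores began at −12 and at 5, on either side of the start site used. That start site lies inside the gene, which begins at chr2:164832873, upstream of the whole promoter shown. Among the 10 E-box promoters, those of Lgmn and Ctsl also lie wholly inside their genes. The 10 genes with an E-box had a median log2 fold change of −0.019 in knockout against wild type, and 7 of the 10 had the lower fitted mean in knockout. With libraries scaled by their totals in place of TMM factors, 4 of the 10 were lower and the median was 0.021, and without wild type 1 the median was −0.030. The 17 without it, 16 of them tested, had a median of −0.075, and 11 of the 16 were lower. With library totals 9 of the 16 were lower with a median of −0.035, and without wild type 1 the median was −0.057.

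Libraries held between 17123748 and 28610649 counts. Wild type 1 stood apart from the other 5 libraries, at −58.1 on the first principal component of log2 CPM against 1.53 to 27.3 in the others (40.6% of the variance). For each tested lysosomal gene and each role, the log2 fold change or its median without this library is given too. The smooth muscle label held, since the contractile actin Acta2 took 1.94 to 2.49% of counts, and Myh11 was at 6559.8, 9805 and 9893 CPM in wild type 1 to 3 and 11026, 9142 and 9593 CPM in knockout 1 to 3. Macrophages, which are rich in lysosomes, left little RNA. The summed level of the 14 macrophage markers found was 5.47 to 11.7 CPM in the wild-type libraries and 2.96 to 11.5 CPM in the knockout libraries. Csf1r lay between 0.0569 and 1.12 CPM, Adgre1 between 0 and 0.175 CPM and Ptprc between 0 and 0.560 CPM over the 6 libraries. Ctss, the cathepsin most typical of macrophages and dendritic cells, had 0, 6 and 13 counts in wild type and 0, 4 and 6 counts in knockout, and no fold change is given for it. Summed markers of other cells came to 49.1 to 59.9 CPM for endothelium, 1443 to 2149.6 CPM for adventitial fibroblasts and 0.171 to 0.559 CPM for lymphocytes and granulocytes over the 6 libraries. The median of the 10 adventitial markers was 10.7 CPM, so the more abundant of them made up most of that sum. Of the 10 endothelial markers, 6 were abundant enough to be tested. Their median was 2.43 CPM, so the more abundant of them made up most of the endothelial sum. Nerve and Schwann cell markers summed to 616 to 721 CPM, nearly all of it Ncam1 at 612 to 718 CPM, and the 1 adipocyte marker found, Fabp4, was at 38.9 to 74.5 CPM. Red blood cell genes summed to 387 CPM in wild type 1 against 823 to 1186 CPM in the other libraries, and their part in the values of wild type 1 was not tested.

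Transcript levels of the set ran over more than 3 orders of magnitude when expressed as CPM per kilobase of exon. This scale lets genes be compared only roughly. The length counts every annotated exon of a gene, so exons that these cells may not use lower the value. Psap was the most abundant at 389.7 CPM per kilobase, above 99.3% of the tested genes with a known exon length. Lamp1 followed at 346, Ctsd at 312, Cd63 at 231 and Ctsb at 207 CPM per kilobase. These are a sphingolipid activator precursor, a membrane protein, the main aspartic protease, a tetraspanin and a cysteine protease. Lamp1 and Cd63 share the role of membrane proteins, and the other genes each came from a different role. At the other end stood Ctsk at 6.68, Glb1 at 4.24, Npc1 at 3.45, Gla at 1.81 and Ctss at 0.142 CPM per kilobase. The order is a description, and neighbours with similar levels were not tested against each other.

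**Figure D1:**
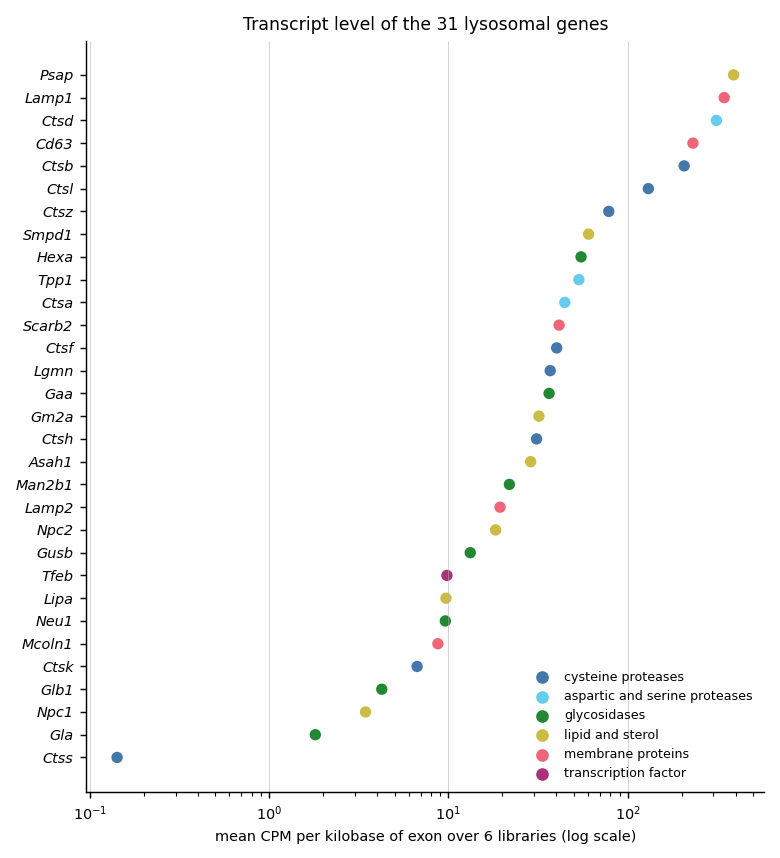
Mean transcript level of each of the 31 lysosomal genes over the 6 libraries, as CPM per kilobase of exon on a log axis, coloured by role. Psap, Lamp1, Ctsd, Cd63 and Ctsb lead at 207 to 389.7 CPM per kilobase, and Ctss is last at 0.142.

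No lysosomal gene was called different between the genotypes. By edgeR's quasi-likelihood test with Benjamini-Hochberg adjustment over all genes, 0 of the 30 tested genes were called at an adjusted p of 0.05 (0% of all 15185 genes were called), with adjusted p from 0.775 to 0.996. DESeq2 also called 0 of the 30, against 0.448% of all genes. At an unadjusted p under 0.05 there were 2 of 30 genes (6.67%), Scarb2 with the higher and Npc2 with the lower level in knockout, against 6.29% of all genes. The libraries of the genotypes did not overlap for 5 of 30 genes (16.7%), Ctsz, Man2b1, Smpd1, Gm2a and Npc2, against 14.5% of all genes. Each of these shares lay near the share over all genes.

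The estimates were narrow enough to bound most of the differences. For 27 of the 30 genes (90.0%) the 95% interval of the fold change lay within 1.5-fold in either direction, that is between −0.58 and 0.58 on the log2 scale. The share was 47.4% over all genes and 75.6% over the 3667 genes with a mean of at least 50 CPM, the more fitting comparison because the median lysosomal gene was at 100.02 CPM and the median of all tested genes at 16.8 CPM. The genes whose interval reached beyond 1.5-fold were Ctsk, Lamp2 and Scarb2. The median size of the log2 fold change was 0.084 in the set and 0.17 over all genes, and the median SE was 0.12 and 0.18. Fitted means were lower in knockout for 21 of 30 genes (70.0%, against 50.1% of all genes), with a median log2 fold change of −0.030, but when libraries were scaled by their totals in place of TMM factors, 13 of 30 were lower and the median was 0.011. That scaling moved the median of all genes from −0.00078 to 0.039. Without wild type 1, 19 of 30 were lower, with a median of −0.036. The 31 genes summed to 6004, 6515 and 6371 CPM in the wild-type libraries and 6319, 6183 and 6142 CPM in the knockout libraries, and these groups overlapped. In bulk RNA, fewer cells of a type and less RNA per cell cannot be told apart.

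**Figure D2:**
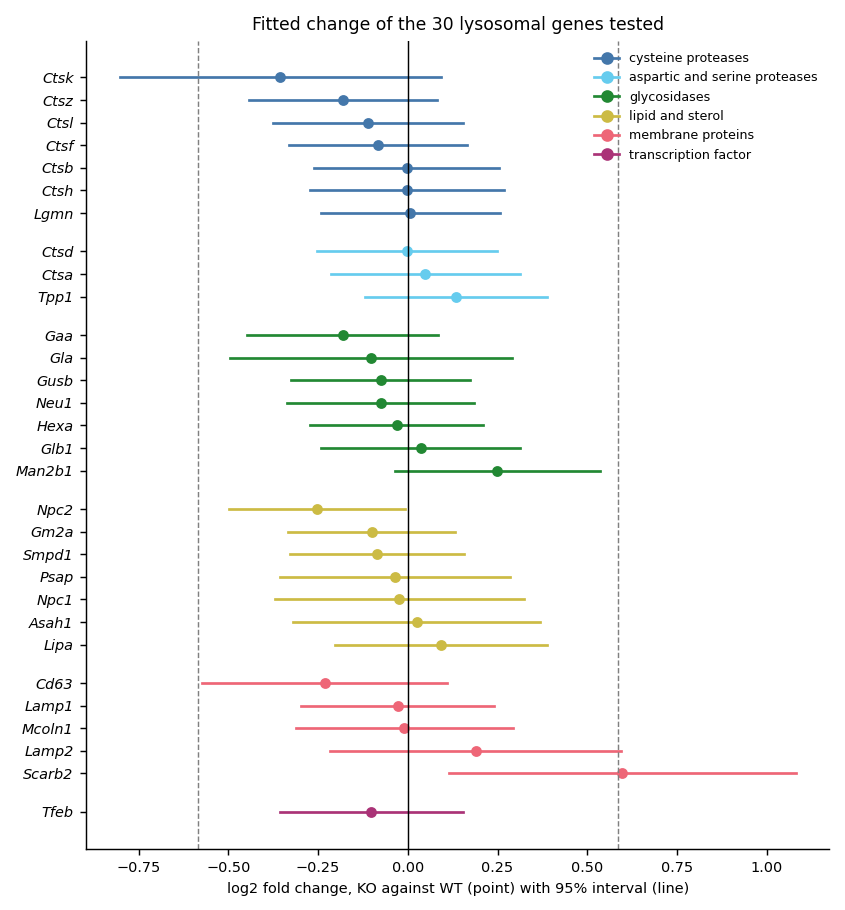
Fitted log2 fold change, knockout against wild type, of the 30 tested lysosomal genes, with 95% intervals and colours by role; dashed lines mark 1.5-fold. The intervals of Scarb2, Lamp2 and Ctsk reach past the dashed lines, and those of Scarb2 and Npc2 lie to one side of 0.

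Cysteine proteases are the largest family of lysosomal peptidases, and 7 of its 8 genes in the set were tested. Of these, 6 had the lower and 1 the higher fitted mean in knockout (4 and 3 with library totals), with a median log2 fold change of −0.083 (−0.039 without wild type 1), and 0 reached an unadjusted p under 0.05. Ctsb, cathepsin B, a general protein-degrading protease and the most abundant of the family in CPM, was at 939, 984 and 1016 CPM in wild type 1 to 3 and 1031, 941 and 959.8 CPM in knockout 1 to 3. The wild-type and knockout libraries were interleaved. Group means were 979.7 ± 38.7 CPM for wild type and 977 ± 47.9 CPM for knockout (SD, n = 3 each), a log2 fold change of −0.0036 ± 0.11 with a 95% interval from −0.26 to 0.26 (edgeR adjusted p = 0.995), and it was −0.033 without wild type 1.

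Ctsk, cathepsin K, a strong elastase and collagenase, was scarce. It was at 13.6, 9.61 and 10.2 CPM in the wild-type libraries and 8.14, 10.5 and 7.44 CPM in the knockout libraries. The highest library was wild type 1, and knockout 2 lay above wild type 2 and wild type 3, so the groups overlapped. The log2 fold change was −0.35 ± 0.20 (95% interval −0.80 to 0.092, edgeR adjusted p = 0.778), and −0.19 without wild type 1. Leaving out each library in turn gave −0.51 to −0.19 for Ctsk, and its unadjusted edgeR p came under 0.05 only without knockout 2. Ctsz, cathepsin Z, a carboxypeptidase, was at 134, 117 and 109.9 CPM in wild type 1 to 3 and 105, 104 and 109 CPM in knockout 1 to 3. All 3 knockout libraries lay below all 3 wild-type libraries, by a margin of under 1 CPM between knockout 3 and wild type 3. Its log2 fold change was −0.18 ± 0.12 (edgeR adjusted p = 0.778), or −0.096 without wild type 1. The exact permutation p for Ctsz was 0.1, 2-sided, the smallest that 3 against 3 libraries allow.

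The remaining cysteine proteases showed small differences. Ctsf, cathepsin F, had a log2 fold change of −0.083 with all libraries and −0.039 without wild type 1. Ctsh, an aminopeptidase, had −0.0028 and 0.068, and Lgmn, legumain, which cuts after asparagine and processes other cathepsins, 0.0067 and 0.042. Lgmn was at 89.7, 89.5 and 77.8 CPM in the wild-type libraries and 85.2, 88.4 and 84.5 CPM in the knockout libraries, and the knockout libraries all fell inside the wild-type range.

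Aspartic and serine proteases were represented by 3 genes, of which 1 had the lower and 2 the higher fitted mean in knockout (0 and 3 with library totals). Their median log2 fold change was 0.049, or 0.0011 without wild type 1, with 0 at an unadjusted p under 0.05. Ctsd, cathepsin D, the main aspartic protease of lysosomes, was at 792, 809 and 763 CPM in wild type 1 to 3 and 760.1, 812 and 787 CPM in knockout 1 to 3. The 6 libraries lay within 1.07-fold of each other, the narrowest range in the set, and the groups overlapped throughout. Its group means were 788 ± 23.4 CPM for wild type and 786 ± 25.7 CPM for knockout (SD, n = 3 each), and the 95% interval of its log2 fold change of −0.0026 ran from −0.25 to 0.25 (edgeR adjusted p = 0.996). Without wild type 1 it was 0.0011. Ctsa, cathepsin A, which also protects neuraminidase and beta-galactosidase in a complex, was at 186, 221 and 213 CPM in the wild-type libraries and 220.1, 203 and 218 CPM in the knockout libraries. The lowest library was wild type 1 and the other 5 overlapped, with a log2 fold change of 0.049 ± 0.12 (edgeR adjusted p = 0.925), or −0.021 without wild type 1. Tpp1, tripeptidyl peptidase 1, whose loss causes a neuronal lipofuscin storage disease in children, was at 166, 180.0 and 194 CPM in wild type 1 to 3 and 199, 203 and 191 CPM in knockout 1 to 3. Wild type 3 lay above knockout 3, so the groups overlapped. The log2 fold change was 0.13 ± 0.11 (edgeR adjusted p = 0.788), or 0.079 without wild type 1.

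Glycosidases take sugars off glycogen, glycoproteins and glycolipids. All 7 in the set were tested, and 5 had the lower and 2 the higher fitted mean in knockout (4 and 3 with library totals), with a median log2 fold change of −0.075 (−0.010 without wild type 1) and 0 at an unadjusted p under 0.05. Man2b1, the lysosomal alpha-mannosidase, was at 75, 89.7 and 94.6 CPM in the wild-type libraries and 95.6, 109.7 and 103 CPM in the knockout libraries. All 3 knockout libraries lay above all 3 wild-type libraries, with knockout 1 and wild type 3 about 1 CPM apart. Group means were 86.4 ± 10.2 CPM for wild type and 103 ± 7.06 CPM for knockout (SD, n = 3 each), a log2 fold change of 0.25 ± 0.13 with a 95% interval from −0.036 to 0.54 (edgeR adjusted p = 0.778). Without wild type 1, the lowest library, it was 0.16.

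Gaa, acid alpha-glucosidase, the enzyme that degrades glycogen and is missing in Pompe disease, was at 164, 191 and 200.3 CPM in wild type 1 to 3 and 167, 159 and 164 CPM in knockout 1 to 3. Wild type 2 and wild type 3 were the highest libraries, while wild type 1 fell among the knockout libraries. The log2 fold change was −0.18 ± 0.12 (95% interval −0.45 to 0.085, edgeR adjusted p = 0.778), and −0.26 without wild type 1, where its unadjusted p came under 0.05. Hexa, the alpha subunit of beta-hexosaminidase, whose loss causes Tay-Sachs disease, was the most abundant glycosidase per kilobase of exon, at 54.9 CPM per kilobase against 36.4 for Gaa. It was at 109, 101 and 102 CPM in the wild-type libraries and 105, 95.8 and 104 CPM in the knockout libraries, and the groups overlapped. Its log2 fold change was −0.031 ± 0.11 (edgeR adjusted p = 0.950), or 0.0021 without wild type 1. Gusb, beta-glucuronidase, had a log2 fold change of −0.075 with all libraries and −0.096 without wild type 1, and Neu1, the neuraminidase that removes sialic acid, −0.075 and −0.0072. Glb1, the acid beta-galactosidase whose activity is stained as a sign of senescence, was at 22.2, 25.3 and 24.1 CPM in the wild-type libraries and 23.1, 23.8 and 26.4 CPM in the knockout libraries, and the groups overlapped. Its log2 fold change was 0.036 ± 0.12, or −0.010 without wild type 1. Gla, the alpha-galactosidase missing in Fabry disease, was the scarcest tested gene of the set at 5.94, 6.76 and 5.64 CPM in wild type 1 to 3 and 5.46, 6.11 and 5.48 CPM in knockout 1 to 3, with a log2 fold change of −0.10 ± 0.17, or −0.12 without wild type 1.

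**Figure D3:**
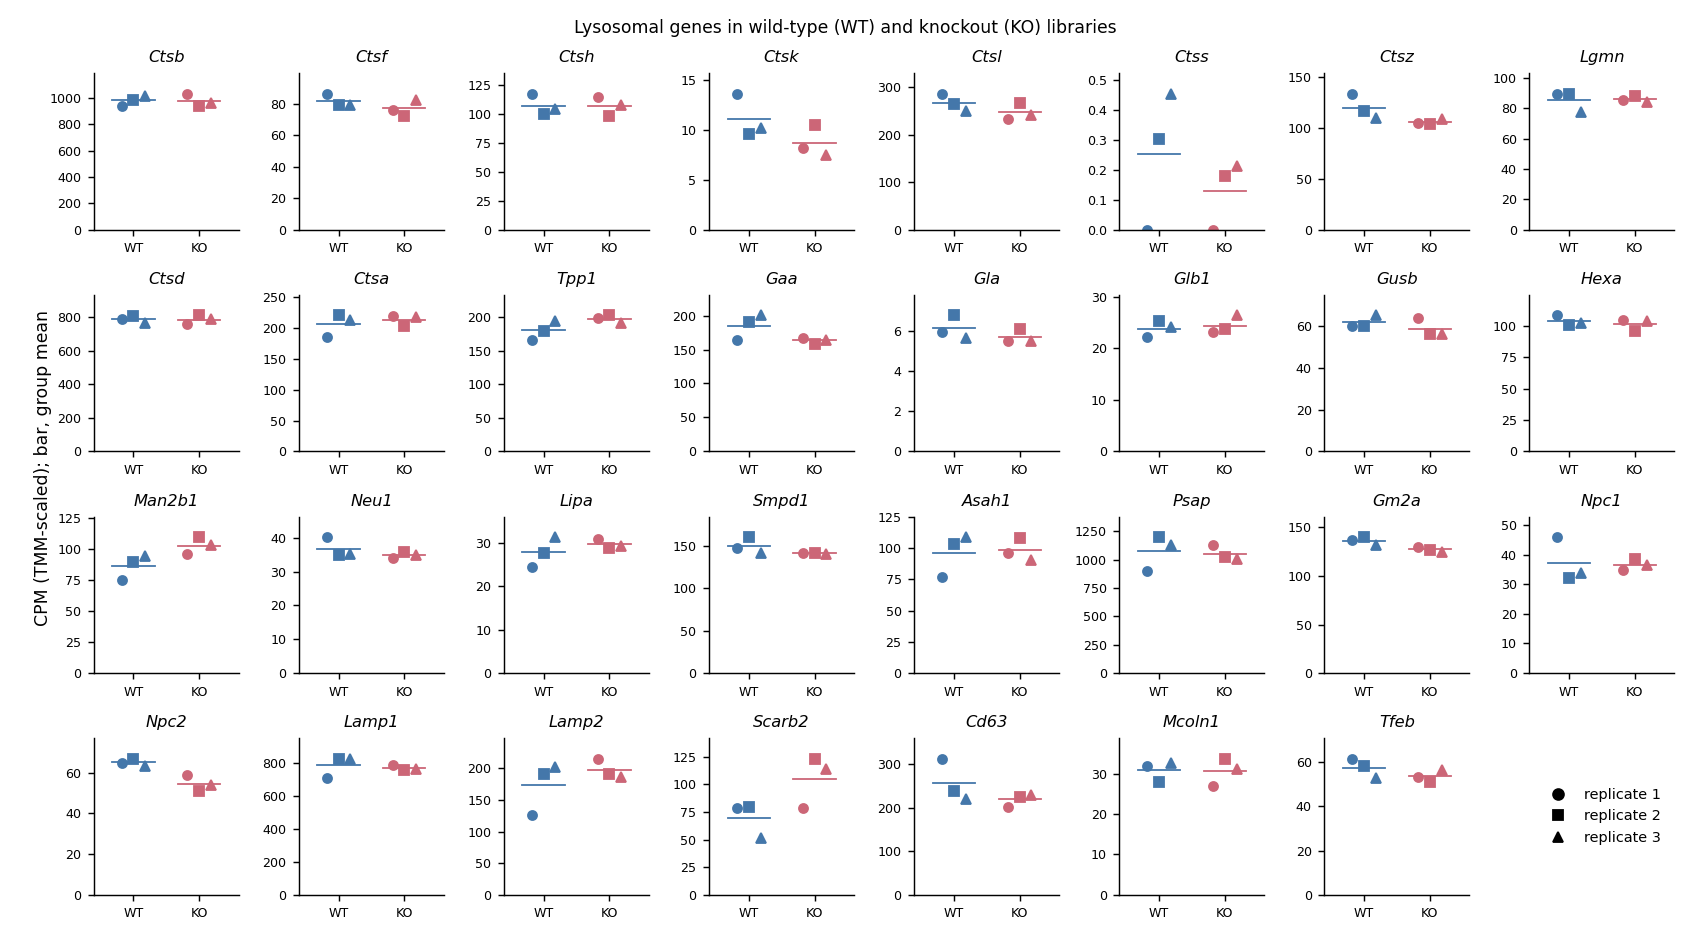
TMM-scaled CPM of each of the 31 lysosomal genes in each library, blue for wild type and red for knockout, with marker shape giving the replicate number and a bar at each group mean; each panel has its own axis from 0. The groups overlap for most genes, Npc2 is lower in all 3 knockout libraries, and Scarb2 is high in knockout 2 and knockout 3 only.

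Lipid hydrolases, their activators and the sterol transporters made up 7 genes, all tested. The lower fitted mean was in knockout for 5 and in wild type for 2 (3 and 4 with library totals), with a median log2 fold change of −0.036 that library totals turned to 0.0049 and leaving out wild type 1 to −0.097. Npc2 was the 1 gene of this role with an unadjusted p under 0.05. It encodes the soluble protein that takes cholesterol released inside the lysosome and hands it to the membrane protein encoded by Npc1. Npc2 (chr12:84754562-84773152, minus strand, mm10) was at 64.7, 66.9 and 63.4 CPM in the wild-type libraries and 58.8, 50.8 and 54.1 CPM in the knockout libraries. Every knockout library lay below every wild-type library. Group means were 65 ± 1.75 CPM for wild type and 54.6 ± 4.01 CPM for knockout (SD, n = 3 each), a knockout level 0.840 times that of wild type with a 95% interval from 0.708 to 0.995 times. The log2 fold change was −0.25 ± 0.11 (unadjusted p = 0.0450, adjusted p = 0.778, edgeR's quasi-likelihood test). DESeq2 gave an adjusted p of 0.755, and leaving out each library in turn gave log2 fold changes from −0.31 to −0.20, with −0.26 without wild type 1. The unadjusted p of Npc2 was not under 0.05 with DESeq2's size factors, library totals, no filter on low counts, DESeq2 or the replicate block, and among the fits that left out 1 library it was under 0.05 only without wild type 1. The difference did not pass the adjusted threshold under either tool.

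Npc1, the membrane partner of Npc2, was at 46, 32.2 and 33.7 CPM in wild type 1 to 3 and 34.9, 38.3 and 36.6 CPM in knockout 1 to 3. Wild type 1 was the highest library and the other wild-type libraries the lowest, so that the log2 fold change of −0.023 ± 0.15 became 0.15 without wild type 1. Lipa, the acid lipase that frees cholesterol from its esters and fatty acids from triglycerides, was at 24.4, 27.7 and 31.3 CPM in the wild-type libraries and 30.9, 28.8 and 29.3 CPM in the knockout libraries. Its groups overlapped, and its log2 fold change was 0.093 ± 0.13, or 0.0066 without wild type 1, its lowest library.

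Sphingolipid breakdown was covered by 4 genes. Psap encodes prosaposin, the precursor of the saposins that present sphingolipids to their hydrolases, and was at 900.3, 1199 and 1131 CPM in wild type 1 to 3 and 1132, 1018 and 1001 CPM in knockout 1 to 3. Wild type 1 was lowest and wild type 2 highest, with the knockout libraries between them. The log2 fold change was −0.036 ± 0.14 (95% interval −0.36 to 0.29, edgeR adjusted p = 0.958) and −0.15 without wild type 1. Gm2a, the activator that lifts GM2 ganglioside out of membranes for hexosaminidase, was at 137, 140.2 and 132 CPM in the wild-type libraries and 130.2, 127 and 125 CPM in the knockout libraries. All knockout libraries lay below all wild-type libraries, with a log2 fold change of −0.10 ± 0.10 (edgeR adjusted p = 0.819), or −0.096 without wild type 1. Smpd1, acid sphingomyelinase, which makes ceramide, was at 148, 161 and 142 CPM in wild type 1 to 3 and 142, 142 and 140.5 CPM in knockout 1 to 3, also without overlap but less than 1 CPM apart at the nearest libraries. Its log2 fold change was −0.085 ± 0.11, or −0.097 without wild type 1. Asah1, acid ceramidase, which consumes ceramide, was at 77, 103 and 109 CPM in the wild-type libraries and 95.9, 108 and 90.5 CPM in the knockout libraries. Its groups overlapped, and its log2 fold change moved from 0.025 to −0.11 without wild type 1.

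Membrane proteins line the lysosome and carry cargo and ions across its border. Of the 5 tested, 3 had the lower and 2 the higher fitted mean in knockout (1 and 4 with library totals), with a median log2 fold change of −0.0095, or 0.0038 without wild type 1. Their median coefficient of variation among wild-type libraries was 19.1%, against 8.49% over the 30 genes, but 5.52% against 4.03% over wild type 2 and wild type 3 alone. Scarb2 had the largest difference of the set. It encodes LIMP-2, an abundant integral membrane protein of the lysosome. Scarb2 (chr5:92441314-92506833, minus strand, mm10) had 1320, 1555 and 1467 counts in wild type and 1372, 2744 and 3208 counts in knockout, which came to 78.5, 79.1 and 51.4 CPM and 78.1, 123 and 114 CPM. Knockout 2 and knockout 3 were the highest libraries and wild type 3 the lowest, while knockout 1 lay level with wild type 1 and wild type 2, so the groups overlapped. Group means were 69.6 ± 15.8 CPM for wild type and 105 ± 23.9 CPM for knockout (SD, n = 3 each), a knockout level 1.51 times that of wild type with a 95% interval from 1.08 to 2.11 times.

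The fitted log2 fold change of Scarb2 was 0.60 ± 0.21 (unadjusted p = 0.0208, adjusted p = 0.775, edgeR's quasi-likelihood test). DESeq2 gave an adjusted p of 0.423, and the exact permutation test of log2 CPM gave p = 0.3, 2-sided. Leaving out each library in turn gave log2 fold changes from 0.41 to 0.77, and 0.70 without wild type 1. Its unadjusted p was not under 0.05 without wild type 3, without knockout 2 or without knockout 3.

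The other membrane proteins had smaller fitted differences than Scarb2. Lamp1, the major coat glycoprotein, was at 709, 828 and 823 CPM in the wild-type libraries and 791, 761 and 763 CPM in the knockout libraries. The knockout libraries lay inside the wild-type range, with a log2 fold change of −0.028 ± 0.12 (95% interval −0.30 to 0.24, edgeR adjusted p = 0.961), or −0.097 without wild type 1. Lamp2, its relative that serves chaperone-mediated autophagy and is missing in Danon disease, was at 126, 191 and 202 CPM in wild type 1 to 3 and 216, 191 and 186 CPM in knockout 1 to 3. Only wild type 1 was low, and the log2 fold change of 0.19 ± 0.18 was 0.0038 without it. Cd63, a tetraspanin of late endosomes and exosomes, was at 313, 239 and 221 CPM in the wild-type libraries and 203, 225 and 229 CPM in the knockout libraries. Wild type 1 was high and the other libraries overlapped, so that −0.23 ± 0.15 (edgeR adjusted p = 0.778) became −0.066 without it. Mcoln1, the calcium release channel TRPML1 that signals to TFEB, was at 31.9, 27.9 and 32.8 CPM in wild type 1 to 3 and 26.9, 33.8 and 31.2 CPM in knockout 1 to 3, with overlapping groups and a log2 fold change of −0.0095 ± 0.13, or 0.014 without wild type 1.

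Tfeb, which encodes the transcription factor of the set, was at 61.6, 58.1 and 52.9 CPM in the wild-type libraries and 53.2, 51.1 and 56.5 CPM in the knockout libraries. Knockout 3 lay above wild type 3, so the groups overlapped. Group means were 57.6 ± 4.40 CPM for wild type and 53.6 ± 2.75 CPM for knockout (SD, n = 3 each), and the log2 fold change was −0.10 ± 0.11 with a 95% interval from −0.36 to 0.15 (edgeR adjusted p = 0.828), and it was −0.049 without wild type 1, the highest library. TFEB is controlled mostly by its entry into the nucleus, which transcript counts do not measure.

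Replicate libraries resembled each other more in this set than over all genes. The median coefficient of variation was 8.49% in wild type and 5.79% in knockout, against 17.4% and 10.9% over all tested genes, which include many less abundant ones. It was larger in wild type than in knockout for 21 of the 30 genes. Among the 6 libraries, wild type 1 was the lowest for 10 and the highest for 11 of the 30 genes. Over all tested genes it was lowest for 32.5% and highest for 32.1%. Its deviations across the 30 genes had an SD of 0.22 on the log2 scale, against 0.094 to 0.16 in the other libraries. Genes with longer exons tended to be lower in wild type 1, with a Spearman correlation of its deviation with exon length of −0.36 over the 30 genes and −0.39 over 13674 genes. The other libraries gave 0.0024 to 0.31 over the 30 genes. These correlations are across genes that share a library, they carry no test, and the part of transcript length in the values of wild type 1 was not tested.

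**Figure D4:**
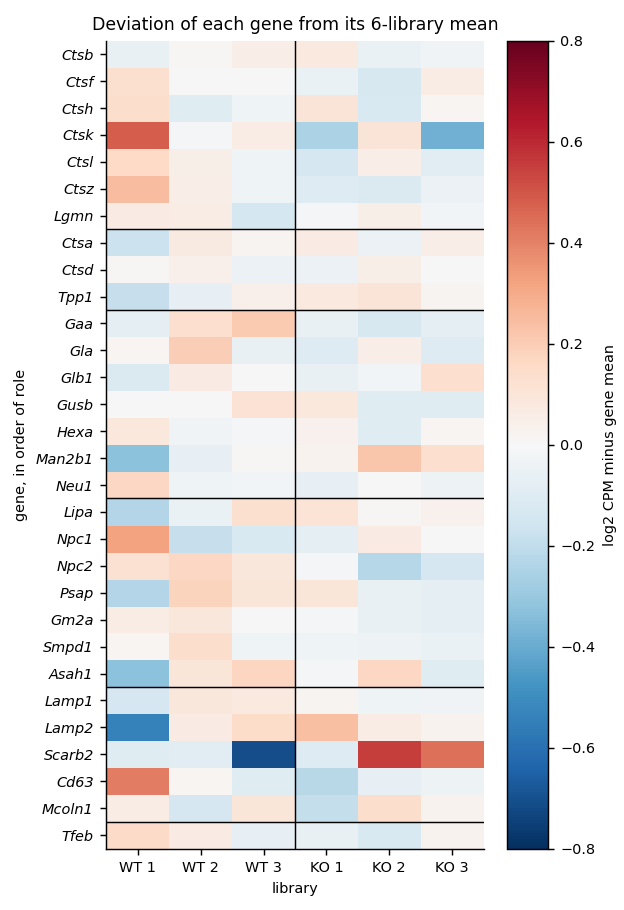
Deviation of log2 CPM from each gene's mean over the 6 libraries, with genes in rows by role and libraries in columns. Lamp2, Asah1 and Man2b1 are low and Ctsk, Cd63 and Npc1 high in wild type 1, and Scarb2 is low in wild type 3 and high in knockout 2 and knockout 3.

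Genes around the lysosome that are not in the set were counted by role in 7 lists, which held 158 tested genes. Of these 158, edgeR called 0 and DESeq2 called 1, and 6 (3.80%) had an unadjusted p under 0.05, 3 lower and 3 higher in knockout, against 6.29% of all genes. The median log2 fold change over the 158 was 0.032, with 64 lower and 94 higher, and without wild type 1 it was −0.0091 with 82 lower. None of the 7 list medians below changed sign when library totals were used.

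Other hydrolases and their activators numbered 31 tested genes, 15 lower and 16 higher in knockout, with 1 at an unadjusted p under 0.05. That gene was Scpep1, a serine carboxypeptidase of the same fold as cathepsin A, which DESeq2 called and edgeR did not. It was at 230.4, 229 and 216 CPM in wild type 1 to 3 and 129.8, 135 and 129.99 CPM in knockout 1 to 3, a wider gap than for any of the 30 tested genes of the set (log2 fold change −0.77 ± 0.11, edgeR adjusted p = 0.219, DESeq2 adjusted p = 4.18e-09). Without wild type 1, edgeR's adjusted p for Scpep1 was 0.0135. The position of Scpep1 relative to the miR-21 locus was not examined here. DNA linked to the targeted allele would go with genotype, and its part in the level of Scpep1 was not tested. Ctsa, its structural relative in the set, had a log2 fold change of 0.049 ± 0.12. Next by p were Arsa, arylsulfatase A, at −0.24 ± 0.11, Sgsh, a heparan sulfatase, at −0.26 ± 0.14, and Galc, galactosylceramidase, at 0.47 ± 0.24 on the log2 scale.

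Other membrane proteins and transporters numbered 25 tested genes, 7 lower and 18 higher in knockout, with a median log2 fold change of 0.14 that was 0.013 without wild type 1. The gene at an unadjusted p under 0.05 was Laptm4b, a small protein of late endosomes. It was at 106.3, 96.9 and 105.6 CPM in the wild-type libraries and 93.7, 72.7 and 81.9 CPM in the knockout libraries, without overlap, and its log2 fold change was −0.31 ± 0.13. Next by p were Slc29a3, a nucleoside transporter, at 0.24 ± 0.12, and Slc38a9, an arginine sensor of mTORC1, at 0.34 ± 0.16 on the log2 scale, each with every knockout library above every wild-type library. Cd68, a LAMP relative found mainly in macrophages, was scarce at 2.68, 1.32 and 1.30 CPM in wild type 1 to 3 and 0.512, 1.12 and 1.14 CPM in knockout 1 to 3.

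The proton pump that acidifies the lysosome was covered by 18 genes, 11 lower and 7 higher in knockout, with a median log2 fold change of −0.065 (−0.036 without wild type 1) and 0 at an unadjusted p under 0.05. Delivery of enzymes to the lysosome was covered by 32 genes, 10 lower and 22 higher, with a median of 0.060 that was −0.017 without wild type 1. Igf2r, the large mannose 6-phosphate receptor, was picked after its values were seen. It was at 49.6, 102 and 99.1 CPM in the wild-type libraries and 121, 105 and 96.1 CPM in the knockout libraries, and the log2 fold change of 0.36 ± 0.25 became 0.092 without wild type 1. M6pr, the small mannose 6-phosphate receptor, was at 89.7, 115 and 108 CPM in wild type 1 to 3 and 108, 100.1 and 102 CPM in knockout 1 to 3, with overlapping groups.

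Relatives and regulators of TFEB, with the mTORC1 machinery at the lysosome, came to 23 tested genes, 8 lower and 15 higher in knockout. Their median log2 fold change of 0.057 became −0.016 without wild type 1. Mitf, a relative of Tfeb that binds the same E-box, was the gene with an unadjusted p under 0.05. It was at 16.2, 19.2 and 15.4 CPM in the wild-type libraries and 20.2, 20.1 and 23.7 CPM in the knockout libraries, with every knockout library above every wild-type library and a log2 fold change of 0.33 ± 0.14 (edgeR adjusted p = 0.778). Fnip1 and Flcn, partners that act on the Rag GTPases, had log2 fold changes of 0.30 ± 0.14 and 0.27 ± 0.13, or 0.20 and 0.24 without wild type 1.

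Autophagy, the route that brings cell contents to the lysosome, was covered by 24 genes, 10 lower and 14 higher in knockout, with a median log2 fold change of 0.024 and 3 at an unadjusted p under 0.05 (1 lower, 2 higher). Ulk1, the kinase that starts autophagosome formation, was at 70.9, 66.9 and 62.9 CPM in wild type 1 to 3 and 83.7, 92.2 and 77.9 CPM in knockout 1 to 3. All 3 knockout libraries were above all 3 wild-type libraries, with a log2 fold change of 0.34 ± 0.12 (unadjusted p = 0.0162, edgeR adjusted p = 0.769). Map1lc3a, an LC3 protein of the autophagosome membrane, had a log2 fold change of −0.35 ± 0.15, or −0.18 without wild type 1. Cathepsin inhibitors were few, with 5 tested, 3 lower and 2 higher in knockout, and 0 at an unadjusted p under 0.05. Cstb, cystatin B, which blocks cysteine cathepsins in the cytosol, was at 64.3, 44.5 and 41.3 CPM in the wild-type libraries and 37.7, 40.2 and 43.2 CPM in the knockout libraries. Wild type 1 was high, and the log2 fold change of −0.31 ± 0.17 became −0.085 without it.

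**Figure D5:**
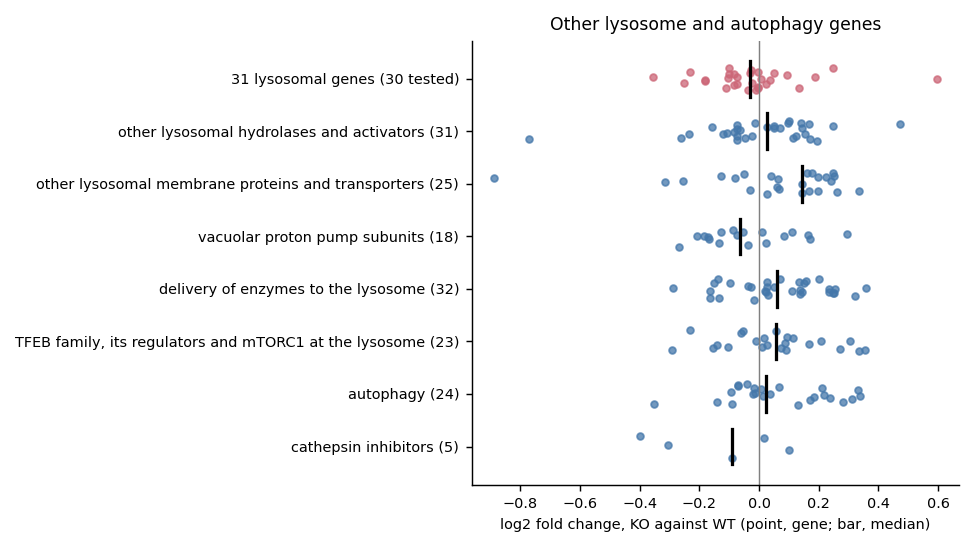
Log2 fold change, knockout against wild type, of each tested gene in the 31-gene set (red) and in the 7 lists of related genes (blue), with a black bar at each median and the number tested in brackets. The medians lie between −0.091 and 0.14, and Scpep1 and Cd68 are the lowest points.

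Some counts could include reads of other genes. The labels do not say whether reads were counted by strand, and 9 of the 31 genes overlap another gene of the table, 7 of them a gene on the opposite strand. Ctsb overlaps Fdft1, Ctsa overlaps Neurl2 and Pltp, and Lamp1 overlaps Grtp1. The levels of these genes are uncertain to that extent. Scarb2 and Npc2 overlap no gene of the table.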

How the data were processed

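Frozen cells were extracted with Trizol, and TruSeq RNA libraries were sequenced, per the labels' protocols. STAR 2.6, DESeq2 and the build mm10 come from the submitters' processing notes. Which tool counted, and with what strand setting, is not stated there. The authors deposited expected counts by gene with no normalization, as read from the values, of which 65.4% lie within 0.01 of a whole number. They were rounded to whole numbers. Genes were kept by filterByExpr and libraries scaled by TMM in edgeR 4.0.16 (R 4.3.3). Knockout was tested against wild type over all 15185 genes with glmQLFit and glmQLFTest (robust=TRUE), 2-sided, with Benjamini-Hochberg adjustment and a threshold of 0.05. Intervals are 95%, from the SE and the fitted degrees of freedom. Library totals ran from 17123748 to 28610649, and the number of libraries, 3 per genotype, limits the precision. DESeq2 1.42.0, limma 3.58.1 (voom), other scalings and filters, unrounded counts, a replicate block and leaving out each library were the alternatives. The code was tested on simulated counts of 15185 genes, 200 of them changed. Of the changes of 1 on the log2 scale, edgeR recovered 64.1% and DESeq2 69.6%. Of all calls, 6.13% were false with edgeR and 16.8% with DESeq2. The simulation had no outlying library such as wild type 1, so these rates may not hold for the data. Exon lengths and UTRs came from GENCODE vM1 by symbol, and promoters and the miRNA from RefSeq on GRCm38.p6. Of 17008 genes matched to RefSeq, the deposited stop lay 1 base past the gene end for 4672 and equalled it for 411, so 1 was subtracted. Values in every library with SE and adjusted p are given for lysosomal genes with an unadjusted p under 0.05. They are also given for the 2 genes with the smallest p and the gene with the highest mean CPM in each role. Hexa was added for its level per kilobase and Ctsl for its seed site. From each list of related genes, at most the 4 with the smallest p and a mean CPM of at least 1 are named, and Igf2r and M6pr were added after their values were seen. The lysosomal genes and all lists were chosen with earlier results of these data known.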

Additional observations from a re-analysis of the deposited data

How the results depend on the processing

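Of 14 alternative settings, 8 of method and 6 that leave out 1 library each, none brought a lysosomal gene past the adjusted threshold. DESeq2 called 68 of all genes (17 higher, 51 lower) where edgeR called 0, and leaving out 1 library gave edgeR 0 to 9. At an unadjusted p under 0.05, 1 lysosomal gene in place of 2 remained with DESeq2's size factors, with no filter on low counts, with DESeq2 and with the replicate block, Scarb2 each time. Leaving out 1 library gave 0 to 3, the 0 without wild type 3 and without knockout 3. With library totals instead of TMM, 13 lysosomal genes were lower, their median was 0.011, and the 433 higher and 522 lower genes at an unadjusted p under 0.05 became 643 and 376; the lysosomal genes among these were then Scarb2 and Man2b1 in place of Scarb2 and Npc2. Leaving out 1 library gave 17 to 21 lower genes and a median of −0.054 to −0.023. Of 420 fold changes of single genes, 44 changed sign, in 12 genes whose log2 fold change was at most 0.049 in size; the cause was not tested. These became, with DESeq2's size factors, Ctsb 0.0032, Ctsd 0.0039 and Ctsh 0.0044; with library totals, Ctsb 0.037, Ctsd 0.038, Ctsh 0.038, Lamp1 0.013, Hexa 0.0096, Npc1 0.017, Psap 0.0049 and Mcoln1 0.029; with no filter, Ctsb 0.0039, Ctsd 0.0053 and Ctsh 0.0069; with DESeq2, Ctsb 0.0031, Ctsd 0.0040 and Ctsh 0.0044; and with limma voom, Npc1 0.00096. Leaving out 1 library gave Ctsb −0.042 to 0.024, Ctsh −0.054 to 0.068, Lgmn −0.061 to 0.045, Ctsd −0.028 to 0.023, Ctsa −0.021 to 0.10, Glb1 −0.024 to 0.083, Hexa −0.054 to 0.010, Asah1 −0.11 to 0.12, Psap −0.15 to 0.053, Npc1 −0.11 to 0.15, Lamp1 −0.097 to 0.015 and Mcoln1 −0.084 to 0.077. Same-numbered libraries did not deviate together (correlations −0.27, −0.18 and −0.084). Each value rests on deviations from a mean of only 3 libraries, so pairing by replicate number was neither shown nor excluded. With the number as a block, 0 genes were called, 572 had an unadjusted p under 0.05 in place of 955, 21 of 30 lysosomal genes were lower and 1 had an unadjusted p under 0.05. Low counts limit Ctss and the macrophage genes; whether loss of miR-21 was complete limits every comparison.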
